A study of Mus musculus with 32 samples.

Results

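The epithelium of the embryonic mouse skin was represented by 79 of the 1916 single cells in the series. A cell was counted as a member if it came from dissected skin and carried the label Epi (epithelial) in the study's list of cells, a label that the study assigned by clustering cells on the activity of regulons (sets of genes grouped under a transcription factor), itself inferred from expression. A pair of E11.5 cells had identical values for every gene and was counted as 1 cell, which left 78 cells. Of the 286 distinct Epi cells of skin, intestine, liver and lung, the cells set against them were 109 from intestine, 47 from liver and 52 from lung.

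The embryos were C57BL/6J mice at embryonic days E9.5, E10.5 and E11.5, with no mutation or treatment named in the labels. Skin epithelial cells came from 6 of the 7 embryos: 7 cells from E9.5 embryo 2, 10 from E9.5 embryo 3, 7 from E10.5 embryo 1, 15 from E10.5 embryo 2, 18 from E11.5 embryo 1 and 21 from E11.5 embryo 2. E9.5 embryo 2 was female and sequenced on a HiSeq 2500, and the other 5 embryos were male and sequenced on a HiSeq 4000. Cells were picked by mouth pipette from trypsin-digested tissue, and the site on the body from which the skin was taken is not given in the sources used here. The skin cells of E9.5 embryo 3 were processed in 1 sample together with intestine and somite cells, and both embryos of E10.5, and likewise both of E11.5, shared a skin sample.

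The unit of expression was the authors' TPM, which here is the number of unique molecular identifiers (UMIs, the tags that count captured transcripts) per 1000000 UMIs of the cell (CPM in kind), with no correction for transcript length. Levels are given as log2(TPM/10 + 1), a cell was said to express a gene at 1 or more on this scale, and cells were averaged within each embryo. Sums over a list of genes are given in CPM, from the pooled UMIs of the cells of an embryo. The replicate is the embryo. The median depth of a skin epithelial cell was 226003 UMIs, from 22132 to 1906218. The E9.5 cells were the deepest, with embryo medians of 949896 and 481814 UMIs, against medians of 244270 and 175150 at E10.5 and of 216428.5 and 155698 at E11.5. Depth therefore differed between the early and the late embryos, and shares of cells compared across stages are given also after thinning to 100000 UMIs. Thinning kept the 64 skin cells of at least that depth (33 early, 31 late), in which 1 UMI suffices for a gene to count as expressed, and left out 14. Values of the 6 embryos are always listed from the youngest stage to the oldest, with the lower-numbered embryo of a stage first.

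At these stages the mouse surface ectoderm turns from a simple epithelium into the stratifying epidermis. It keeps a basal layer of dividing progenitors, which is marked in later skin by the basal keratins and requires the transcription factor p63, and for a time it is covered by a flat protective layer called periderm. Wnt ligands made by the ectoderm signal to the ectoderm itself and to the dermal mesenchyme below, and Wnt and BMP antagonists set the spacing of hair follicles and other skin appendages. The intestine, liver and lung epithelia used for comparison derive from endoderm, the inner germ layer.

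The results turn on genes that separated the skin from the endodermal epithelia at all stages (Tfap2b, Wnt6) and on genes that appeared at E11.5 (Gjb2, Gjb6), and the promoters of these 4 genes are shown. Each sequence runs from 250 bases before to 50 bases after the start of the gene in RefSeq on GRCm38.p6, and was searched on both strands for the AP-2 motif GCCNNNGGC, shown in capitals, and for CTTTGAT, a core recognised by the TCF/LEF factors of the Wnt pathway. The promoter of Tfap2b, which encodes an AP-2 transcription factor, lies at chr1:19211804-19212103 (plus strand) and holds neither motif. This start lies inside the gene as GENCODE M21 annotates it (chr1:19208914-19238576). The promoter of Wnt6, a secreted Wnt ligand, lies at chr1:74771642-74771941 (plus strand) and holds the AP-2 motif once, with its first base at position -12 from the start.
Tfap2b: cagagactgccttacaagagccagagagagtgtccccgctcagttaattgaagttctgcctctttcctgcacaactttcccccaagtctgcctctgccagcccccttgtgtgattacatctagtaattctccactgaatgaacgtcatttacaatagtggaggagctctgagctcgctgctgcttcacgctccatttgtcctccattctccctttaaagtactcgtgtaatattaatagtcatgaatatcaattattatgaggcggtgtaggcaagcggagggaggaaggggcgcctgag
Wnt6: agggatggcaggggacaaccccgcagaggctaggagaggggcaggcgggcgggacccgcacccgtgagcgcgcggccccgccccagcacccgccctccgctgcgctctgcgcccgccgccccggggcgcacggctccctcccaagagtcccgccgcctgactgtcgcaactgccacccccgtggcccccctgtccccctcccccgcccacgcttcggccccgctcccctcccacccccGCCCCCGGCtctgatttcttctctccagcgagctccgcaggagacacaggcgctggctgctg

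The promoters of Gjb2 and Gjb6, neighbouring genes that encode gap junction proteins of the epidermis, lie on the minus strand at chr14:57104653-57104952 and chr14:57133562-57133861. The AP-2 motif occurs once in the Gjb2 promoter, at position -124, and is not in the Gjb6 window.
Gjb2: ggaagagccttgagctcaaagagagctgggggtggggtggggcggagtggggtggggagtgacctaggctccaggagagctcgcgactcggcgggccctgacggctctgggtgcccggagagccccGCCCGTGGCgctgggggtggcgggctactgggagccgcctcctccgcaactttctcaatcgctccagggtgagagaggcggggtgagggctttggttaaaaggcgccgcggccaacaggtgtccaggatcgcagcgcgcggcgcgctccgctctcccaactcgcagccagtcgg
Gjb6: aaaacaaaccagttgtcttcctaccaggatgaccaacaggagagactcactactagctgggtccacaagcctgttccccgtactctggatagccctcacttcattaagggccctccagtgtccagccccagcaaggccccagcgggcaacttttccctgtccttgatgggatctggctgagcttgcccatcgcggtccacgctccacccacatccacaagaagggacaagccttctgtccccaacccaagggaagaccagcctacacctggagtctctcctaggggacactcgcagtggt
Their GC contents are 70.0% (Gjb2) and 57.3% (Gjb6), beside 76.7% for Wnt6 and 48.3% for Tfap2b. Of all 32851 mouse promoters of this length, 16.6% hold GCCNNNGGC and 3.73% hold CTTTGAT, so single matches are common. The matches are descriptions of these letters and were not tested for binding.

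The label was first described by its 4 markers. These were chosen with earlier results of these data known. Their levels here, and their p-values below, therefore describe the cells and do not test the label. Sostdc1, an extracellular antagonist of BMP and Wnt signalling (chr12:36314139-36318452, plus strand), had embryo levels of 7.92, 7.24, 6.77, 6.17, 7.03 and 5.67. Tfap2b stood at 5.36, 6.01, 5.42, 5.35, 6.41 and 6.10, and Wnt6 (chr1:74771892-74785322, plus strand) at 5.52, 5.70, 6.11, 5.07, 6.33 and 5.41. In all 6 embryos these 3 genes were above every embryo value of the other epithelia, which reached at most 0.58, 0.14 and 1.16 respectively. Krt15, a keratin of basal epidermal cells (chr11:100131758-100135928, minus strand), stood at 0.37, 0.35, 0.54, 1.48, 5.39 and 4.67, high in both E11.5 embryos and at or below 1.48 in the 4 earlier ones. All 78 cells expressed at least 3 of the 4 markers, and 48 expressed all 4, of which 11 were from E9.5 or E10.5 and 37 from E11.5. Among the 77 mesenchymal (Mes) cells of the same skin samples, 12 expressed at least 3.

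The share of cells that expressed a marker was set beside that in other cell types. The study names Sostdc1 and Wnt6 among the skin genes shared by its epithelial and mesenchymal cells. Sostdc1 was expressed in 97.4% of skin epithelial cells (median depth 226003 UMIs), in 46.8% of skin Mes cells (309699 UMIs), and in 0.917%, 2.13% and 3.85% of the Epi cells of intestine (368816 UMIs), liver (651595 UMIs) and lung (256424 UMIs). Tfap2b was expressed in 100% of skin epithelial and 36.4% of skin Mes cells, and Wnt6 in 100% and 45.5%. The skin Mes cells shared their samples with the epithelial cells, and their embryo means were lower: 1.53 for Sostdc1, 1.31 for Tfap2b and 1.41 for Wnt6. Whether free RNA from the epithelial cells contributed to these Mes values was not tested.

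**Figure D1:**
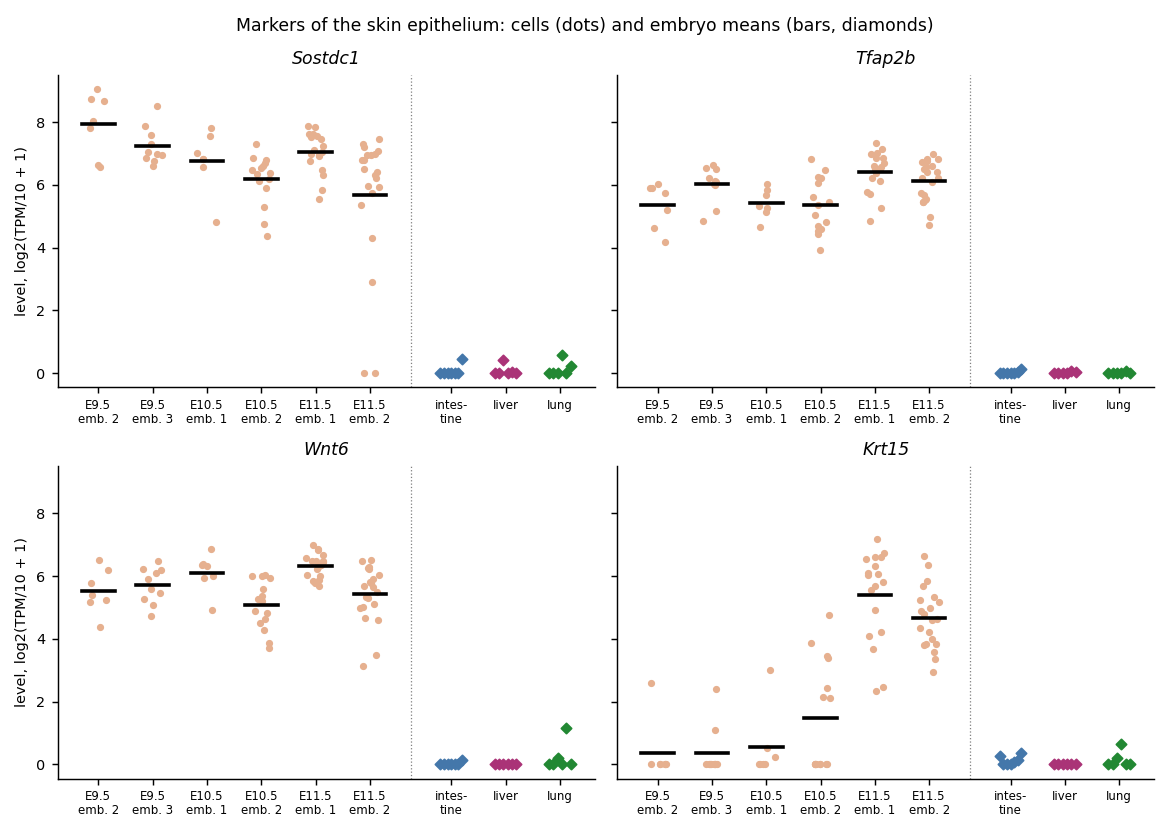
Levels of the 4 markers, as log2(TPM/10 + 1) on the vertical axis, in single skin epithelial cells (dots) with the mean of each embryo (black bars), beside the embryo means of the intestine, liver and lung epithelia (diamonds). Sostdc1, Tfap2b and Wnt6 are high in all 6 skin embryos, whereas Krt15 reaches 5.39 and 4.67 in the E11.5 embryos and is at most 1.48 before.

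Markers of other cell types were then read in the same cells. Summed over the markers of endothelium, the skin epithelial embryos reached at most 0.53 CPM, and 4 of the 7 endothelial markers (Cdh5, Kdr, Emcn, Cldn5) had no UMI in any cell. Erythroid markers summed to between 0.40 and 102 CPM, with Hba-x and Hbb-y highest in E9.5 embryo 2 (levels of 2.40 and 2.19). Macrophage markers summed to 186 CPM in E11.5 embryo 2 and to between 4.8 and 32.4 CPM in the other skin embryos. Of the 8 neural markers, 5 (Sox2, Sox1, Elavl3, Neurog1, Neurod1) had no UMI, and Sox10, which marks neural crest, was expressed in 2 cells. Against the mean of the other 3 epithelia no tested member of these lists was called, whether endothelial (7 tested), erythroid (6), macrophage (5), neural (5), neural crest and melanoblast (7) or muscle (3). The limma test, defined below, called 4.27% of all genes. The embryos of intestine, liver and lung reached erythroid sums of 3250, 725 and 1807 CPM and endothelial sums of 8.3, 259 and 14.3 CPM. The absence of calls is therefore not a measure of purity. Against single organs, the globin genes Hbb-y and Hbb-bh1 were called lower than in liver and the receptor gene Kit lower than in intestine.

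Of the 14 mesenchyme markers, 4 (Prrx1, Cdh11, Col3a1, Col1a2) were called higher in skin, beside 2.78% over all genes. Their level differed between embryos. The 14 summed to 163, 226, 938, 359, 245 and 807 CPM in the 6 embryos, against 2398 to 4686 in the skin Mes cells. At the level of cells, 38 of 78 expressed at least 3 of 6 mesenchyme markers (Prrx1, Pdgfra, Col3a1, Pcolce, Cdh11, Twist1), compared with all 77 skin Mes cells. By embryo these were 3 of 7, 6 of 10, 5 of 7, 8 of 15, 0 of 18 and 16 of 21 cells, and after thinning 3 of 7, 5 of 9, 6 of 6, 9 of 11, 4 of 16 and 13 of 15. The 2 embryos of E11.5, which shared 1 sample, stood at opposite ends without thinning, with 0 of 18 cells in embryo 1 (a count of 0 of 18 allows a share of up to 16.7%) and 16 of 21 in embryo 2. Epcam, an epithelial adhesion molecule, was expressed in 77 of 78 cells, and Epcam together with the intermediate filament gene Vim in 74.

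**Figure D2:**
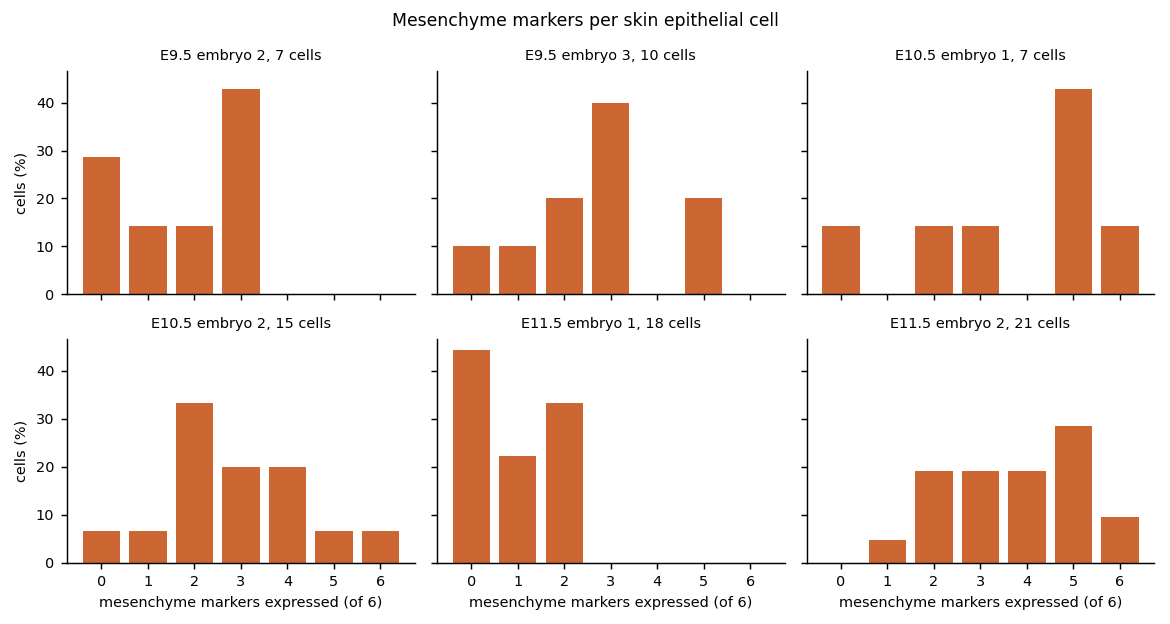
Percent of skin epithelial cells (vertical axis) that expressed 0 to 6 of 6 mesenchyme markers (horizontal axis), 1 panel per embryo. The 18 cells of E11.5 embryo 1 all lie below 3 markers, and 16 of the 21 cells of E11.5 embryo 2 lie at 3 or more.

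The BMP and Wnt antagonist Sostdc1, the AP-2 factor Tfap2b, the ligand Wnt6, the desmosome gene Perp and the stratifin gene Sfn were higher in every skin embryo than in every embryo of the endodermal epithelia, and the endoderm factor Foxa2 was lower in every skin embryo. The endoderm factor Foxa1 and the serum protein gene Afp were called lower, with embryo values that overlapped those of the other organs. The comparison was made with embryo means, 6 of skin against 7 of intestine, 6 of liver and 6 of lung, using limma with Benjamini-Hochberg adjustment (called: adjusted p under 0.05 and a log2 difference of at least 1). Against the mean of the other 3 epithelia, 4.27% of the 15608 genes tested were called (666), 2.78% higher in skin (434 genes) and 1.49% lower (232 genes). The median difference over all genes was -0.0099. Counts of list members against the other epithelia are read beside the 2.78% called higher and 1.49% called lower. Beside Sostdc1, Tfap2b and Wnt6, which differed by 6.71 ± 0.17 (SE, adjusted p = 5.3e-33), 5.76 ± 0.18 (SE, adjusted p = 8.7e-29) and 5.61 ± 0.17 (SE, adjusted p = 5.3e-30), the called increases of largest size, among genes with every skin embryo above every embryo of the other organs, were in Perp, Hapln1, Mt2, Anxa2, Sfn, Lgals1, S100a11, Hspb1 and Igfbp2. Such a separation, which chose these genes, was found in 188 genes (1.2% of those tested). Krt15 was called as well, by 2.04 ± 0.37 (SE, adjusted p = 5.1e-05), although its 4 early values overlapped those of the other organs.

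Perp, a p53 and p63 target that belongs to desmosomes (chr10:18845020-18857073, plus strand), had levels of 5.13, 6.16, 5.87, 5.77, 6.24 and 5.59 and at most 1.67 in the other epithelia. It differed by 5.15 ± 0.19 (SE, adjusted p = 1.5e-26). Sfn, which encodes the epithelial protein stratifin, had levels of 4.60, 4.33, 6.00, 5.48, 5.33 and 4.71 against at most 0.62 elsewhere, a difference of 4.85 ± 0.16 (SE, adjusted p = 4.9e-28). Both genes were lower in the skin Mes cells, at means of 1.06 and 1.10. Hapln1, a link protein of the hyaluronan matrix, had levels of 5.80, 5.87, 5.50, 5.18, 5.12 and 5.33 and differed by 5.15 ± 0.22 (SE, adjusted p = 4.2e-24). It was also present in skin Mes cells, at a mean of 2.61. Mt2, a metallothionein that binds zinc and copper, stood at 6.33, 6.81, 5.67, 6.22, 5.40 and 5.76 and differed by 4.97 ± 0.29 (SE, adjusted p = 2.5e-18).

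The calcium-binding protein genes Anxa2 and S100a11 were both high. Anxa2 had levels of 5.82, 6.62, 7.01, 6.51, 7.68 and 7.28 and S100a11 of 6.83, 8.14, 8.25, 8.40, 9.30 and 8.80, and they differed from the other epithelia by 4.88 ± 0.45 (SE, adjusted p = 5.7e-12) and 4.52 ± 0.37 (SE, adjusted p = 9.1e-14). Lgals1, a galactoside-binding lectin, differed by 4.62 ± 0.38 (SE, adjusted p = 1.5e-13), yet its mean in skin Mes cells (7.78) stood beside a skin epithelial mean of 7.16. Igfbp2, which binds insulin-like growth factors, differed by 4.44 ± 0.34 (SE, adjusted p = 1.4e-14). Hspb1, a small heat shock protein of epithelia, had levels of 2.65, 3.79, 5.02, 5.56, 6.89 and 6.58, lowest at E9.5 and highest at E11.5, and differed by 4.45 ± 0.34 (SE, adjusted p = 1.4e-14).

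Of the 32 tested transcription factors of ectoderm and epidermis, 8 were called higher in skin and 1 lower, and their median difference was 0.42, against -0.0099 over all genes. Tfap2a, Tfap2b and Tfap2c, which encode AP-2 factors of the ectoderm, were among the 8. Tfap2a stood at 2.44, 4.62, 4.89, 4.59, 4.63 and 4.70, lowest in E9.5 embryo 2, and differed by 4.25 ± 0.19 (SE, adjusted p = 4.9e-23). Tfap2c stood at 2.38, 2.02, 1.67, 2.75, 1.29 and 0.47, lowest in the E11.5 embryos, and differed by 1.73 ± 0.15 (SE, adjusted p = 6.3e-13). The factor called lower was Tbx3, a T-box gene. The 3 AP-2 genes were expressed together in 39 of 78 cells, 26 of 39 at the early stages and 13 of 39 at E11.5 (24 of 33 and 11 of 31 after thinning).

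Trp63, which encodes p63, the regulator that surface ectoderm needs to become stratified (chr16:25683763-25892102, plus strand), was at 2.08, 2.73, 2.17, 2.83, 3.06 and 3.42 in skin and at most 0.19 in the other epithelia. The difference was 2.70 ± 0.10 (SE, adjusted p = 9.8e-26), and 71 of 78 skin epithelial cells expressed it, against 6 of 77 skin Mes cells. Msx2, a homeobox gene downstream of BMP signals, differed by 3.49 ± 0.31 (SE, adjusted p = 1.2e-12) with levels of 2.57, 4.12, 3.63, 3.88, 4.72 and 4.77. Its mean in skin Mes cells was 5.11. Dlx2, a homeobox gene of ectoderm and branchial arches, had levels of 1.72, 1.72, 3.26, 3.28, 1.70 and 1.67, with both E10.5 embryos above the other 4. It differed by 2.21 ± 0.14 (SE, adjusted p = 2.6e-17). Foxi2, a forkhead factor of ectoderm, differed by 1.33 ± 0.11 (SE, adjusted p = 4.7e-13) with levels of 1.83, 1.64, 1.89, 1.70, 0.26 and 0.68, and the other epithelia were at 0 in every embryo. The calls of all these factors were kept without any 1 embryo.

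Of 12 tested keratins, 4 were called higher in skin and none lower, with a median difference of 0.46. Krt7, a keratin of simple epithelia, stood at 5.86, 6.38, 6.50, 5.75, 5.86 and 5.65 in skin and differed from the mean of the other organs by 3.03 ± 0.20 (SE, adjusted p = 2.1e-16). Its mean was 4.17 in intestine, 4.47 in lung and 0.27 in liver. Krt19 stood at 4.91, 4.01, 3.21, 3.58, 4.17 and 4.54, differed by 1.59 ± 0.32 (SE, adjusted p = 0.00018), and was not called against intestine, where its mean was 5.04. Krt14 (chr11:100203162-100207548, minus strand) stood at 0.52, 1.19, 1.08, 0.96, 3.43 and 3.31, above the other epithelia in every embryo, and differed by 1.73 ± 0.22 (SE, adjusted p = 5.7e-08). Krt1 and Krt10, keratins of the differentiated suprabasal layers, were not called, with Krt1 at 0 in 5 of 6 embryos and Krt10 differing by -0.0045 ± 0.24. Both simple-epithelium keratins Krt8 and Krt18 were expressed together in 75 of 78 cells.

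Of 7 tested periderm markers, 2 were called higher, among them Sfn, which is also a gene of other stratifying epithelium. Krt17, a keratin of periderm and appendages, had levels of 0, 0.093, 0.82, 0.25, 0.47 and 1.28 and differed by 0.48 ± 0.081 (SE, adjusted p = 1.3e-05), below the size needed for a call. Krt4 had no UMI in any skin epithelial cell and Krt6a reached 0.088 in 1 embryo, so neither was tested. A count of 0 in the 24681560 UMIs of these cells allows a level of up to 0.122 CPM, counting error only.

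The Wnt ligand and secretion genes were summed to between 872 and 1394 CPM in the early skin embryos and to 1682 and 2083 at E11.5, against at most 309 in any embryo of the other epithelia. Of 22 tested members, 6 were called higher in skin and none lower, with a median difference of 0.32. Wnt3, a canonical ligand of the limb and skin ectoderm, had levels of 1.89, 0.37, 2.55, 2.18, 2.81 and 2.05 and was at 0 in every embryo of the other 3 epithelia, a difference of 1.98 ± 0.14 (SE, adjusted p = 1.8e-15). Wnt10a, a ligand needed for teeth, hair and other appendages (chr1:74791516-74804179, plus strand), had levels of 1.36, 1.71, 1.66, 1.80, 4.00 and 2.98 and differed by 2.25 ± 0.17 (SE, adjusted p = 4.8e-15). Where one side is at or near 0, as here, the difference depends on the pseudocount of 1. Groups at 0 also lower the shared spread, and with it the SE and the adjusted p. Wnt10a lies 6.2 kb from Wnt6 on the same strand, and 64 of 78 cells expressed both, 26 of 39 early and 38 of 39 at E11.5 (21 of 33 and 31 of 31 after thinning).

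Wnt4, another ligand of the epidermis, had levels of 2.14, 2.35, 1.91, 1.59, 2.30 and 2.80 and differed by 1.99 ± 0.14 (SE, adjusted p = 1.5e-15). Wls, the carrier that all Wnt proteins need to leave the cell, had levels of 4.62, 5.38, 4.95, 5.15, 5.95 and 5.63 and differed by 2.99 ± 0.18 (SE, adjusted p = 3.9e-18). It was also expressed in skin Mes cells, at a mean of 4.38. Wnt7b had levels of 0.67, 1.92, 2.17, 1.49, 2.92 and 3.17 and differed by 1.01 ± 0.25 (SE, adjusted p = 0.0031) from the mean of the other organs, but by -1.03 ± 0.31 (SE, adjusted p = 0.024) from lung, where this ligand drives growth and where its mean was 3.08. Its call against the mean of the others was lost without either E11.5 embryo, at 0.84 and 0.83, and with the embryo as a block (0.99). Wnt1 had no UMI in the skin epithelial cells.

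None of 19 tested Wnt receptors was called (median difference 0.034), and Fzd2 and Fzd3, frizzled receptors that bind Wnt ligands, had skin means of 2.54 and 2.72 beside lung means of 3.08 and 2.62. Among 16 tested inhibitors, 3 were called higher in skin (median difference 0.38). These were Sostdc1, Kremen2 and Sfrp1. Kremen2, a receptor that removes the Wnt co-receptor from the surface when bound by Dkk proteins, had levels of 0.92, 3.42, 1.73, 2.51, 3.97 and 2.85 and differed by 2.50 ± 0.19 (SE, adjusted p = 7.4e-15). Sfrp1, a secreted frizzled-related protein, had levels of 1.60, 2.26, 3.29, 3.11, 1.92 and 2.56 and differed by 1.99 ± 0.40 (SE, adjusted p = 0.0002). Dkk1, the ligand of Kremen receptors, was not called at 0.63 ± 0.18 and was expressed in 17 of 78 cells.

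Of 10 tested Wnt targets and effectors, 3 were higher in skin and 2 lower (median difference 0.48). Axin2, a negative feedback target of Wnt signalling, had levels of 2.74, 0.94, 1.04, 1.69, 1.08 and 1.49, highest in E9.5 embryo 2, and differed by 1.24 ± 0.18 (SE, adjusted p = 8e-07). Dab2, an endocytic adaptor, differed by 2.34 ± 0.27 (SE, adjusted p = 3.1e-09) with levels of 3.25, 2.73, 3.01, 2.07, 1.90 and 3.39, and its mean in skin Mes cells was 3.60. Bambi, a BMP pseudoreceptor that Wnt signals induce, differed by 1.28 ± 0.38 (SE, adjusted p = 0.015). That call was lost without E10.5 embryo 1, at 1.22 (adjusted p = 0.058), and without either E11.5 embryo, at 1.02 and 0.98, as well as after thinning (1.06, adjusted p = 0.1) and with the median over cells (1.40, adjusted p = 0.12). The cell cycle gene Ccnd1 differed by -2.71 ± 0.33 (SE, adjusted p = 1.2e-08), with skin levels of 2.77, 1.09, 0.58, 1.27, 0.58 and 1.36 and means of 5.72 in liver, 4.78 in lung and 1.45 in intestine. Sp5, a target that represses other targets, differed by -1.06 ± 0.32 (SE, adjusted p = 0.018), and this was not called without E9.5 embryo 3 (-0.89) or E10.5 embryo 2 (-1.04). Targets thus moved in both directions.

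**Figure D3:**
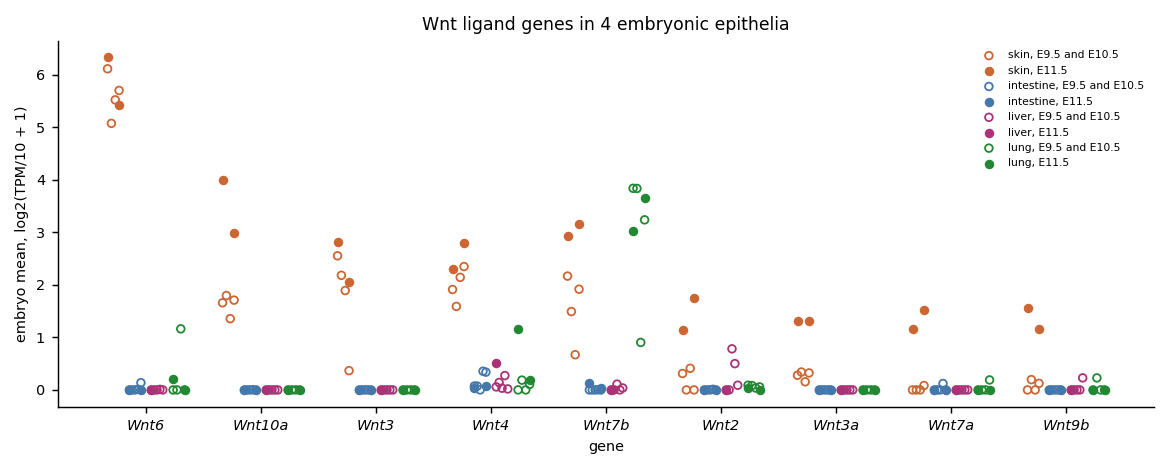
Embryo means of 9 Wnt ligand genes (horizontal axis) in the skin, intestine, liver and lung epithelia, as log2(TPM/10 + 1), with open circles for E9.5 and E10.5 and filled circles for E11.5. Wnt6 lies between 5.07 and 6.33 in skin, the 2 filled circles of Wnt10a lie at 4.00 and 2.98 above the open ones, and in Wnt7b the lung reaches 3.84.

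In the BMP pathway, 3 of 20 were higher and none lower (median difference 0.11), beside 4.27% called over all genes. Bmp7, a ligand made by many epithelia, stood at 4.09, 3.63, 2.42, 2.68, 2.80 and 2.89 and differed by 1.76 ± 0.24 (SE, adjusted p = 1.4e-07). Id1 and Id3, immediate targets of BMP receptors, differed by 1.57 ± 0.53 (SE, adjusted p = 0.034) and 1.45 ± 0.46 (SE, adjusted p = 0.024), and each call was lost without some single embryos, among them E10.5 embryo 1, without which they were 1.32 (adjusted p = 0.16) and 1.23 (adjusted p = 0.14). Id1 was also not called without E9.5 embryo 2 (1.55), embryo 3 (1.61) or E10.5 embryo 2 (1.51), and Id3 without E9.5 embryo 3 (1.34), E10.5 embryo 2 (1.34) or E11.5 embryo 2 (1.27).

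In the FGF pathway 1 of 18 was higher and 1 lower (median difference -0.077), beside 2.78% higher and 1.49% lower over all genes. Fgfr2, the receptor by which ectoderm receives mesenchymal FGF, stood at 3.06, 3.20, 3.25, 3.43, 3.97 and 4.10, above every other epithelial embryo, and differed by 1.79 ± 0.25 (SE, adjusted p = 3.2e-07). Etv5, a target of FGF signals in the lung tip, differed by -1.67 ± 0.27 (SE, adjusted p = 6.6e-06), with a lung mean of 3.80. Fgf4, Fgf8 and Fgf17, ligands of the apical ectodermal ridge of the limb, had no UMI in the skin epithelial cells. Of the hedgehog, Eda and Notch genes, 2 of 21 were higher and 1 lower (median difference 0.07), beside the same shares over all genes. Hhip, a hedgehog-binding inhibitor, stood at 2.94, 2.54, 2.59, 2.41, 1.19 and 1.95 and differed by 1.86 ± 0.34 (SE, adjusted p = 4.1e-05). Gli2, a hedgehog transcription factor, differed by 1.09 ± 0.11 (SE, adjusted p = 4.1e-11) with levels of 0.38, 1.57, 1.35, 1.23, 0.73 and 1.41. The ligand Shh was at 0.021 in E9.5 embryo 2 and at 0 in the other 5 embryos, and differed by -1.81 ± 0.22 (SE, adjusted p = 1.8e-08).

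Adhesion genes were mixed, with 4 of 26 higher and 2 lower (median difference 0.27), beside 2.78% higher and 1.49% lower over all genes. Beside Perp, the desmosomal plaque genes Pkp3, Pkp2 and Jup were higher, by 1.74 ± 0.11 (SE, adjusted p = 7.1e-17), 1.14 ± 0.24 (SE, adjusted p = 0.00035) and 1.05 ± 0.24 (SE, adjusted p = 0.0009). Pkp3 had levels of 2.14, 1.92, 1.90, 2.16, 2.36 and 1.82. The call of Jup was lost on its size without any 1 of E9.5 embryo 1 (0.99), E9.5 embryo 3 (0.98) and E11.5 embryo 2 (0.97). The desmosome gene Dsp did not pass, at 0.54 ± 0.40. Cdh1, E-cadherin of epithelia, was expressed in 73 of 78 cells, and Cdh2, the N-cadherin of mesenchyme and liver, in 6, and the latter differed by -1.54 ± 0.26 (SE, adjusted p = 9.5e-06). Cldn3, a tight junction gene, differed by -1.18 ± 0.22 (SE, adjusted p = 7.9e-05), which fell short of the size without either E11.5 embryo, at -0.94 and -0.95.

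The basement membrane and hemidesmosome genes had 13 of 28 tested members called higher and none lower, with a median difference of 0.68. Summed, they came to between 1606 and 2786 CPM in the skin embryos and to between 278 and 1346 in the others. Col4a2, a chain of the collagen IV network, stood at 3.65, 4.21, 3.38, 4.25, 4.56 and 4.77 and differed by 2.88 ± 0.26 (SE, adjusted p = 2.9e-12). Col18a1, the collagen that gives rise to endostatin, stood at 5.01, 5.67, 5.36, 5.83, 5.50 and 5.71 and differed by 2.69 ± 0.33 (SE, adjusted p = 9.6e-09). Both genes had every skin embryo above every other embryo.

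Npnt, a nephronectin ligand of integrins, stood at 3.45, 2.86, 3.74, 3.62, 3.96 and 3.76 and differed by 2.44 ± 0.31 (SE, adjusted p = 3.3e-08). The laminin-binding integrin chains Itga3 and Itga6 stood at 3.13, 2.40, 2.07, 2.77, 2.13 and 2.43 and at 2.58, 2.44, 3.02, 3.46, 1.78 and 2.47, and differed by 1.91 ± 0.19 (SE, adjusted p = 3.6e-11) and 1.60 ± 0.23 (SE, adjusted p = 8.3e-07). Itga3 was low in skin Mes cells (0.26). Dst, the plakin that links hemidesmosomes to keratin, stood at 1.81, 2.81, 3.24, 2.95, 3.74 and 4.00 and differed by 1.58 ± 0.34 (SE, adjusted p = 0.00044). Itgb4, the hemidesmosome integrin, differed by 0.74 ± 0.067 (SE, adjusted p = 3.2e-12), below the size of a call, and Itgb1, the common beta chain, by 0.38 ± 0.22.

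Of 17 mesenchymal genes and factors of epithelial-mesenchymal transition, 7 were called higher in skin and 1 lower (median difference 0.94). Snai2, a repressor expressed in basal epidermis as well as mesenchyme, stood at 0.94, 2.32, 1.45, 1.49, 2.82 and 1.97, above the other epithelia in every embryo, and differed by 1.75 ± 0.20 (SE, adjusted p = 2e-09). Vim, an intermediate filament of mesenchyme, stood at 2.08, 4.85, 5.62, 4.34, 3.36 and 5.24 and differed by 1.94 ± 0.40 (SE, adjusted p = 0.0003), its lowest value, in E9.5 embryo 2, lying within the range of the other organs. Sparc, a matrix glycoprotein, differed by 1.97 ± 0.44 (SE, adjusted p = 0.00089). The fibrillar collagen Col3a1 stood at 0.97, 2.31, 2.84, 2.47, 0.71 and 3.02 and Col1a2 at 0.98, 1.36, 2.39, 2.04, 1.47 and 3.51, and they differed by 1.52 ± 0.29 (SE, adjusted p = 8.6e-05) and 1.29 ± 0.44 (SE, adjusted p = 0.036). The cadherin Cdh11 stood at 0.28, 0.97, 2.43, 1.64, 0.64 and 2.69 and differed by 1.15 ± 0.25 (SE, adjusted p = 0.00056), and Prrx1, a homeobox gene of limb mesenchyme, by 1.06 ± 0.20 (SE, adjusted p = 0.00012).

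Col3a1, Col1a2, Cdh11 and Prrx1 belong to the mesenchyme markers summed above, and their means in skin Mes cells were far higher (6.10 for Col3a1, 5.76 for Col1a2, 5.56 for Cdh11 and 4.33 for Prrx1). Without E10.5 embryo 1 the differences of Col1a2, Cdh11 and Prrx1 were 1.13, 0.94 and 0.91, and without E11.5 embryo 2 they were 0.97, 0.91 and 0.89, none of them called. Col1a2 was also not called without E10.5 embryo 2 (1.26) and with the embryo as a block, at 1.19 (adjusted p = 0.051). The part of mesenchymal RNA or cells in these values was not tested.

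Endoderm genes were lower in skin, 12 of 22 tested, with 1 higher and a median difference of -1.06. The forkhead factors Foxa1 and Foxa2, which open endodermal enhancers, reached at most 0.071 and 0.041 in a skin embryo and differed by -2.50 ± 0.21 (SE, adjusted p = 4.2e-13) and -1.86 ± 0.18 (SE, adjusted p = 2.1e-11). Foxa3 and Alb had no UMI in the skin cells. Ttr, a thyroid hormone carrier made by liver and gut, differed by -4.27 ± 0.26 (SE, adjusted p = 1e-17), and Afp, the fetal serum protein, by -4.51 ± 0.44 (SE, adjusted p = 2.6e-11). Their highest skin values were 0.25 and 0.28, both in E9.5 embryo 2. Nr2f1, an orphan nuclear receptor, was the member called higher. No member was called among 31 Hox genes (median difference -0.086) or 10 genes of ectodermal placodes and the otic vesicle (0.21), and of 13 genes of the apical ectodermal ridge only Msx2 and Trp63, described above, were.

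Below every other epithelial embryo in each skin embryo were 19 genes (0.122% of those tested), and the 12 called ones of largest size were Cpm, Akr1c19, Ddah1, Pcbd1, Cpn1, Itih2, Aes, Tfrc, Pla2g12a, 0610040J01Rik, Foxa2 and Hk2. Cpm, a membrane carboxypeptidase, had levels of 0.051, 0.23, 0, 0, 0 and 0.10 in skin against means of 3.97, 4.16 and 3.21 in intestine, liver and lung. It differed by -3.72 ± 0.25 (SE, adjusted p = 1.7e-16). Akr1c19, an aldo-keto reductase whose annotated exons overlap a pseudogene on the same strand, differed by -3.27 ± 0.22 (SE, adjusted p = 2.1e-16) and was at most 0.036 in skin. Pcbd1, a cofactor of HNF1 and of pterin recycling, stood at 2.25, 1.79, 1.83, 1.86, 0.63 and 0.74 and differed by -2.91 ± 0.26 (SE, adjusted p = 3.4e-12). Tfrc, the transferrin receptor for iron uptake, stood at 0.84, 1.02, 0.34, 0.95, 0.52 and 0.85 and differed by -2.35 ± 0.30 (SE, adjusted p = 2.6e-08), and Hk2, a hexokinase of glycolysis, stood at 1.30, 1.31, 1.59, 1.28, 1.07 and 1.27 and differed by -1.82 ± 0.33 (SE, adjusted p = 3.8e-05). Aes, a Groucho-related co-repressor, was expressed in 34 of 78 skin cells and differed by -2.44 ± 0.29 (SE, adjusted p = 8e-09).

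Set against each organ alone, 4.3% of genes were called against intestine (671: 415 or 2.66% higher in skin, 256 or 1.64% lower), 9.67% against liver (1510: 673 or 4.31% higher, 837 or 5.36% lower) and 4.25% against lung (663: 447 or 2.86% higher, 216 or 1.38% lower). Against all 3 organs, 244 genes were called higher and 29 lower. Of the 8 general epithelial markers, none was called against the mean of the others, but 6 were higher in skin than in liver and 2, Epcam and Cldn6, were lower than in intestine and in lung. Epcam stood at 5.54, 5.22, 4.60, 4.52, 4.66 and 4.00 in skin, with means of 6.41 in intestine, 6.00 in lung and 2.50 in liver. These levels put skin between liver and the other organs. The split of higher and lower calls depended on the test, and edgeR on summed UMIs gave 735 higher and 740 lower against intestine and 1612 higher and 1141 lower against liver.

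At E11.5 the connexin genes Gjb2 and Gjb6, the chemokine gene Cxcl14 and the basal keratin genes Krt5, Krt14 and Krt15 were higher in the skin epithelium than before. Genes of DNA replication (Rrm2, 2810417H13Rik) and of mitosis (Birc5, Cenph) were lower. Of these falls, only the call of 2810417H13Rik was kept without E11.5 embryo 1. The comparison set the 2 embryos of E11.5 against the 4 of E9.5 and E10.5, in a limma fit over the 25 Epi embryo means of the 4 organs, which share 1 estimate of spread. Organs at or near 0 for a gene lower this shared spread, so an SE is not the spread of the skin embryos alone. At E11.5, 0.701% of 14405 genes tested were called (101), 0.403% higher (58) and 0.299% lower (43), with a median difference of -0.041, and after thinning cells to 100000 UMIs 55 were higher and 62 lower. All values of both late embryos lay above all 4 early ones for 6.38% of genes (919) and below for 11.4% (1648), the background against which the named genes are read. Counts of list members across stages are read beside the 0.403% called higher and 0.299% called lower. Sostdc1, Tfap2b and Wnt6 were not called, at -0.67 ± 0.39, 0.72 ± 0.27 and 0.27 ± 0.35, and the sign of Sostdc1 turned without E11.5 embryo 2 (0.0064), that of Wnt6 without E11.5 embryo 1 (-0.19).

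Gap junction and basal keratin genes rose at E11.5. Gjb2 (chr14:57098600-57104702, minus strand), whose promoter is shown above, stood at 0, 0.11, 0.31 and 0.17 in the early embryos and at 5.69 and 5.16 in the late ones, a difference of 5.28 ± 0.18 (SE, adjusted p = 1.7e-16). Gjb6 (chr14:57123303-57133611, minus strand), 18.6 kb away, went from 0, 0.12, 0 and 0.46 to 3.77 and 2.96, by 3.22 ± 0.16 (SE, adjusted p = 3.2e-13). Gjb2 was expressed in 3 of 39 early and 39 of 39 late cells and Gjb6 in 3 and 33, and both together in 2 and 33. After thinning, Gjb6 was expressed in 3 of 33 early and 27 of 31 late cells and both together in 1 and 27, and the shares for Gjb2 were 6.06% and 100%. The share in skin Mes cells was 11.7%. This share pools the 77 Mes cells of all stages, of which 10 and 4 came from E11.5 embryo 1 and embryo 2. It is not a share at E11.5.

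Of 11 keratins tested across stages, 3 rose and 1 fell (median difference 0.43). Krt15 rose from 0.37, 0.35, 0.54 and 1.48 to 5.39 and 4.67, by 4.35 ± 0.27 (SE, adjusted p = 2.4e-11), Krt14 from 0.52, 1.19, 1.08 and 0.96 to 3.43 and 3.31, by 2.43 ± 0.17 (SE, adjusted p = 2.6e-10), and Krt5 (chr15:101707070-101712898, minus strand) from 0, 0, 0 and 0.19 to 2.50 and 1.74, by 2.08 ± 0.12 (SE, adjusted p = 1.3e-11). Krt5 and Krt14 form the keratin pair of the basal layer. Krt15 was expressed in 11 of 39 early cells (28.2%, and 30.3% after thinning) and in 39 of 39 late ones, Krt14 in 14 and 33, and Krt5 in 1 and 24. All 3 were expressed together in 0 early and 22 late cells, and none of them in 21 early and 0 late cells. A count of 0 of 39 cells allows a share of up to 7.69%. After thinning, Krt14 was expressed in 12 of 33 early and 25 of 31 late cells, Krt5 in 1 and 20, all 3 in 0 and 17, and none of them in 17 and 0.

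Krt18, a keratin of simple epithelia, fell from 6.78, 6.08, 6.86 and 6.12 to 4.16 and 4.23, a difference of -2.27 ± 0.42 (SE, adjusted p = 0.0025). This call was lost without either E11.5 embryo, at -2.23 (adjusted p = 0.11) and -2.30 (adjusted p = 0.1). Krt8 and Krt18 were still expressed together in 36 of 39 late cells (29 of 31 after thinning). Krt7 and Krt19 did not pass the test of stage, at -0.37 ± 0.43 and 0.43 ± 0.59.

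Cxcl14, a chemokine made by epidermis (chr13:56288643-56296551, minus strand), stood at 0.33 and 0.76 at E9.5, at 2.37 and 3.87 at E10.5 and at 7.26 and 6.35 at E11.5. The difference at E11.5 was 4.98 ± 0.55 (SE, adjusted p = 1.5e-06). It was expressed in 22 of 39 early and 39 of 39 late cells (19 of 33 and 31 of 31 after thinning), and in 24.7% of skin Mes cells pooled over all stages. Coch, a secreted matrix protein known from the inner ear, stood at 0.68, 0, 0.31, 0, 2.84 and 2.95 and rose by 2.65 ± 0.16 (SE, adjusted p = 2.8e-11). Htra1, a secreted serine protease, stood at 0.72, 1.05, 1.26, 1.11, 3.90 and 2.90 and rose by 2.37 ± 0.21 (SE, adjusted p = 3.5e-08).

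Smoc2, a matrix protein of basement membranes, went from 0.31, 0.12, 0.62 and 0.83 to 3.52 and 2.62, by 2.60 ± 0.35 (SE, adjusted p = 3.5e-05).

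Further rises were called in Hspb1, by 2.48 ± 0.58 (SE, adjusted p = 0.025), in Skap2, a signalling adaptor, by 2.41 ± 0.42 (SE, adjusted p = 0.0013), in Efna1, an ephrin ligand, by 2.24 ± 0.48 (SE, adjusted p = 0.011), and in Dcn, the matrix proteoglycan decorin, by 1.35 ± 0.23 (SE, adjusted p = 0.00088). Skap2 stood at 1.13, 1.55, 1.85, 2.26, 4.15 and 4.06 and Efna1 at 0.14, 0.67, 0.73, 1.47, 3.29 and 2.70. All these calls were lost without E11.5 embryo 1, at 2.33 for Hspb1 (adjusted p = 0.43), 2.37 for Skap2 (0.066), 1.95 for Efna1 (0.39) and 1.01 for Dcn (0.14). Hspb1 was also not called without E9.5 embryo 2 (1.95), embryo 3 (2.33) or E11.5 embryo 2 (2.64), Efna1 without E9.5 embryo 2 (2.04) or E11.5 embryo 2 (2.54), and Skap2 without E11.5 embryo 2 (2.45).

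**Figure D4:**
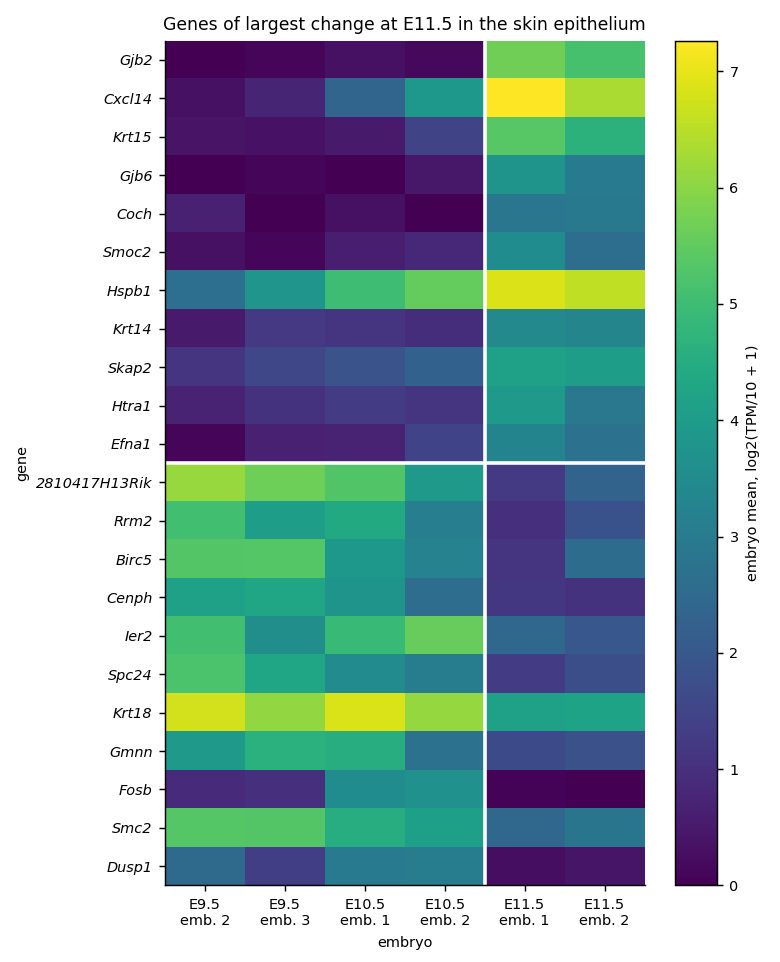
Embryo means of the genes reported among those of largest rise (upper rows) and largest fall (lower rows) at E11.5, all called and without overlap of early and late embryos, coloured by log2(TPM/10 + 1). Gjb2 is at or below 0.31 in the 4 early embryos and at 5.69 and 5.16 in the late ones.

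Of 20 Wnt ligand and secretion genes tested across stages, 5 rose and none fell (median difference 0.54). Wnt10a rose from 1.36, 1.71, 1.66 and 1.80 to 4.00 and 2.98, by 1.86 ± 0.22 (SE, adjusted p = 4.4e-06). Wnt7a, a ligand of dorsal ectoderm, rose from 0, 0.084, 0 and 0 to 1.15 and 1.53, by 1.32 ± 0.086 (SE, adjusted p = 6.6e-11), and Wnt9b from 0, 0.12, 0 and 0.20 to 1.56 and 1.15, by 1.27 ± 0.10 (SE, adjusted p = 2.7e-09). Wnt3a rose by 1.04 ± 0.072 (SE, adjusted p = 2.6e-10) and Wnt2 by 1.26 ± 0.18 (SE, adjusted p = 5.9e-05). Apart from Wnt2, which missed the size of a call without E11.5 embryo 2 (0.96), these calls were kept without any 1 embryo. No Wnt receptor (17 tested), inhibitor (16) or target (10) was called across stages.

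Single members of other lists rose. Col17a1, a hemidesmosome collagen, went from 0, 0.023, 0.62 and 0.14 to 1.64 and 1.29, by 1.27 ± 0.12 (SE, adjusted p = 7.1e-08), the only called member of 28 basement membrane genes. Gabrp, a GABA receptor subunit used as a periderm marker, stood at 0, 0.24, 1.04, 0.39, 1.41 and 2.64 and rose by 1.61 ± 0.22 (SE, adjusted p = 4e-05), with its size just under that of a call without E11.5 embryo 2 (0.99). The transcription factors of ectoderm had no rise and 2 falls among 30 tested. Foxi2 fell from 1.83, 1.64, 1.89 and 1.70 to 0.26 and 0.68, a difference of -1.30 ± 0.13 (SE, adjusted p = 1.5e-07), and Tfap2c from 2.38, 2.02, 1.67 and 2.75 to 1.29 and 0.47, a difference of -1.33 ± 0.23 (SE, adjusted p = 0.00086). Tfap2c was not called without E11.5 embryo 2 (-0.92). Trp63 did not pass, at 0.79 ± 0.23 (adjusted p = 0.12).

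Cell cycle genes were lower at E11.5. Of 43 genes of the G1/S list used by the study, 7 fell and none rose, with a median difference of -1.14, and of 54 G2/M genes 2 fell and none rose, with a median of -1.55, both beside -0.041 over all genes. Summed, the G1/S genes came to between 3768 and 6405 CPM in the early skin embryos and to 1632 and 1885 in the late ones. The G2/M genes came to between 6104 and 15329 early and to 2716 and 3672 late. Both late skin embryos lay below every embryo of the other 3 epithelia, at any stage, on both sums, where the lowest values were 3643 and 6300.

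2810417H13Rik, a PCNA-associated factor of DNA replication, went from 6.16, 5.66, 5.31 and 3.89 to 1.24 and 2.32, a difference of -3.47 ± 0.48 (SE, adjusted p = 5.4e-05), and this call was kept without any 1 embryo. Rrm2, a subunit of the reductase that makes deoxynucleotides, went from 5.08, 4.03, 4.41 and 3.11 to 0.99 and 1.83, a difference of -2.75 ± 0.50 (SE, adjusted p = 0.0018). Rrm2 was expressed in 37 of 39 early and 17 of 39 late cells, 3 of 18 in E11.5 embryo 1 and 14 of 21 in E11.5 embryo 2. After thinning the shares were 100% and 51.6%, with 5 of 16 and 11 of 15 in the 2 late embryos. The proliferation markers Mki67 and Top2a were expressed in 30 and 34 of 39 early cells and in 13 and 15 of 39 late cells, and Top2a again in fewer cells of E11.5 embryo 1 (3 of 18) than of embryo 2 (12 of 21). After thinning, Mki67 was expressed in 27 of 33 early and 14 of 31 late cells and Top2a in 30 and 15. In skin Mes cells, pooled over all stages, Mki67 was expressed in 66 and Top2a in 69 of 77.

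Without E11.5 embryo 1 the fall of Rrm2 was -2.33 and not called (adjusted p = 0.12), and the same held for Birc5, a survivin of mitosis (-1.87, adjusted p = 0.45), the kinetochore genes Cenph (-2.63, 0.084) and Spc24 (-2.26, 0.13), the condensin Smc2 (-2.00, 0.22), the replication licensing inhibitor Gmnn (-2.16, 0.39), and Uhrf1, which maintains DNA methylation (-1.90, 0.11). With both late embryos the change was -2.59 ± 0.59 (SE, adjusted p = 0.019) for Birc5, -2.58 ± 0.48 (SE, adjusted p = 0.0025) for Cenph and -2.51 ± 0.52 (SE, adjusted p = 0.0075) for Spc24. Smc2, Gmnn and Uhrf1 changed by -2.18 ± 0.49 (SE, adjusted p = 0.017), -2.24 ± 0.54 (SE, adjusted p = 0.03) and -2.14 ± 0.39 (SE, adjusted p = 0.0017). Single other embryos mattered as well: Birc5 was not called without E9.5 embryo 2 (-2.29) or embryo 3 (-2.28), Spc24 without E9.5 embryo 3 (-2.41) and Cenph without E11.5 embryo 2 (-2.53). Smc2 was not called without E9.5 embryo 2 (-2.01), embryo 3 (-2.02) or E11.5 embryo 2 (-2.37) and Gmnn without E9.5 embryo 2 (-2.26), embryo 3 (-2.01) or E11.5 embryo 2 (-2.32). The direction stayed the same in each case.

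Further called falls among the cycle lists included those of Mcm5, Tyms, Prim1 and Hmgb2, which act in DNA replication, repair or chromatin, with differences of -1.62 ± 0.38 (SE, adjusted p = 0.025), -1.73 ± 0.40 (SE, adjusted p = 0.023), -1.82 ± 0.36 (SE, adjusted p = 0.0054) and -2.01 ± 0.39 (SE, adjusted p = 0.0046). Each of these calls was lost without some single embryos, Mcm5 without E9.5 embryo 2 (-1.23), embryo 3 (-1.66), E11.5 embryo 1 (-1.60) or embryo 2 (-1.65), Tyms without E10.5 embryo 1 (-1.75), E11.5 embryo 1 (-1.86) or embryo 2 (-1.60), Prim1 without E11.5 embryo 2 (-1.65), and Hmgb2 without E9.5 embryo 3 (-1.78) or E11.5 embryo 1 (-1.79). Pcna, Fen1, Cdk1 and Ube2c did not pass the test, at -1.16 ± 0.50, -1.31 ± 0.51, -2.57 ± 0.78 and -2.53 ± 0.82. Against the other organs, 1 of the 43 G1/S genes (Cdca7, at -1.03 ± 0.24) and 1 of the 54 G2/M genes (Cenpa, at -1.19 ± 0.40) were called lower over all stages, and neither call held without E10.5 embryo 1 (-0.96 and -1.12) or E11.5 embryo 1 (-0.86 and -0.98). Cenpa was also lost without E9.5 embryo 1 (-1.15), E10.5 embryo 2 (-1.12) or E11.5 embryo 2 (-0.83). With edgeR they were -0.93 and -0.92 and with the median over cells -0.98 and -1.48, none of them called, nor was Cdca7 after thinning (-0.84).

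**Figure D5:**
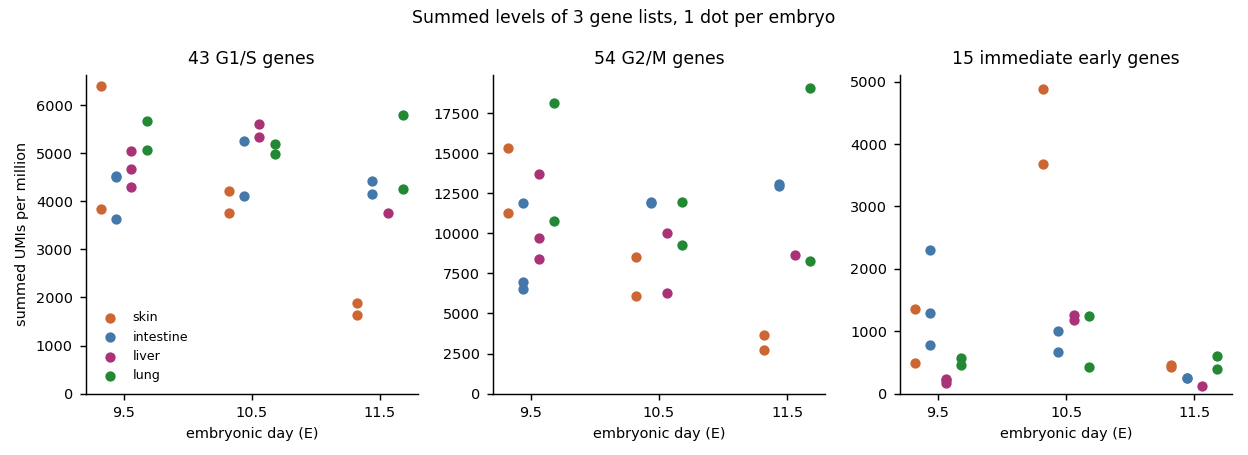
Summed level of the G1/S, G2/M and immediate early gene lists, in CPM (vertical axis), by embryonic day (horizontal axis), with 1 dot per embryo of each epithelium. The 2 E11.5 skin embryos, at 1632 and 1885 for G1/S and at 2716 and 3672 for G2/M, lie below all other dots of these 2 panels, and the E10.5 skin embryos, at 3682 and 4878, lie highest in the immediate early panel.

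Immediate early genes, which cells induce within minutes of a stimulus and also of tissue dissociation, differed by stage within the skin. Their sum over 15 genes was 1350 and 492 CPM at E9.5, 3682 and 4878 CPM at E10.5 and 433 and 462 CPM at E11.5, against 120 to 2305 in the other epithelia. The Mes cells of the same skin samples ranged from 147 to 6885 CPM by embryo, so high sums were not particular to the epithelium. Fos, a subunit of the AP-1 factor, stood at 4.84, 3.34, 6.17, 6.66, 2.39 and 2.86. Of the 15, 3 were called lower at E11.5 and none higher (median difference -1.30). Fosb went from 0.88, 0.97, 3.55 and 3.67 to 0.059 and 0, a difference of -2.23 ± 0.57 (SE, adjusted p = 0.045), and was expressed in 24 of 39 early and 0 of 39 late cells (23 of 33 and 0 of 31 after thinning). Ier2, a transcriptional regulator, and the phosphatase gene Dusp1 changed by -2.57 ± 0.52 (SE, adjusted p = 0.0059) and -2.15 ± 0.51 (SE, adjusted p = 0.025).

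All 3 calls were lost without E11.5 embryo 1, at -2.26 for Fosb (adjusted p = 0.48), -2.82 for Ier2 (0.087) and -2.08 for Dusp1 (0.39). Fosb was in addition not called without E9.5 embryo 1 (-2.23), E10.5 embryo 1 (-1.81), embryo 2 (-1.77) or E11.5 embryo 2 (-2.21), Ier2 without E11.5 embryo 2 (-2.32), and Dusp1 without E9.5 embryo 2 (-2.15), E10.5 embryo 2 (-1.95) or E11.5 embryo 2 (-2.23). Against the other organs Fos, Junb and Egr1 were called higher, by 3.28 ± 0.81 (SE, adjusted p = 0.0029), 1.38 ± 0.49 (SE, adjusted p = 0.049) and 1.91 ± 0.60 (SE, adjusted p = 0.022). Egr1 was not called without E9.5 embryo 2 (1.92), E10.5 embryo 1 (1.58), embryo 2 (1.53) or E11.5 embryo 2 (1.93), and Junb without E9.5 embryo 1 (1.32), embryo 2 (1.29), E10.5 embryo 1 (1.14), embryo 2 (1.26), E11.5 embryo 1 (1.51) or embryo 2 (1.47). The part of cell handling in these values was not tested.

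Whether the change at E11.5 in skin differed from that in the other 3 epithelia was tested as an interaction in the same fit. Here 0.5% of 14405 genes were called, 50 (0.347%) with a more positive change in skin and 22 (0.153%) with a more negative one, and the median difference was -0.040. The skin change exceeded the mean change of the others by 5.29 ± 0.22 (SE, adjusted p = 8.4e-15) for Gjb2, 4.98 ± 0.65 (SE, adjusted p = 3.3e-05) for Cxcl14, 4.26 ± 0.31 (SE, adjusted p = 1.3e-09) for Krt15, 3.22 ± 0.19 (SE, adjusted p = 1.5e-11) for Gjb6 and 3.15 ± 0.50 (SE, adjusted p = 0.00055) for Skap2. In Gjb2 the change was -0.014 in intestine, -0.032 in liver and 0 in lung. For the falls, the difference was -3.08 ± 0.57 (SE, adjusted p = 0.0034) for 2810417H13Rik, -2.59 ± 0.58 (SE, adjusted p = 0.024) for Rrm2, -2.59 ± 0.61 (SE, adjusted p = 0.033) for Spc24, -2.58 ± 0.64 (SE, adjusted p = 0.045) for Gmnn and -2.36 ± 0.46 (SE, adjusted p = 0.0053) for Uhrf1.

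In Rrm2 the other organs changed by 0.21 (intestine), -0.32 (liver) and -0.35 (lung). Without E11.5 embryo 1 none of these 5 falls was called, at -2.52 (adjusted p = 0.23), -2.45 (0.22), -2.71 (0.12), -2.63 (0.32) and -1.98 (0.21), whereas the 5 rises were still called. Rrm2 was also not called without E9.5 embryo 2 (-2.30) or embryo 3 (-2.62), Spc24 without E9.5 embryo 2 (-2.30), embryo 3 (-2.51) or E10.5 embryo 1 (-2.70), and Gmnn without E9.5 embryo 2 (-2.64), embryo 3 (-2.46) or E10.5 embryo 1 (-2.44). The liver had 1 embryo at E11.5, and no value could be fitted without E11.5 embryo 2. Of the lists, 5 of 20 Wnt ligand genes (Wnt2, Wnt3a, Wnt7a, Wnt9b, Wnt10a), 3 of 11 keratins (Krt5, Krt14, Krt15) and 1 of 28 basement membrane genes (Col17a1) rose more in skin, and 5 of 43 G1/S genes and 1 of 54 G2/M genes fell more. With edgeR on summed UMIs 7 genes were called in this test (1 higher, 6 lower), and Gjb2, Cxcl14, Krt15 and Gjb6, which were at or near 0 in the other organs, were not among them.

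The stage comparison rested on 2 late embryos, and the count of calls moved with the test. With E10.5 alone as the earlier group, whose embryos were all male and sequenced on the HiSeq 4000 like those of E11.5, 51 genes were called, and Gjb2, Krt15, Cxcl14, Gjb6, Krt14, Krt5, Coch, Htra1 and Wnt10a were still among them, at 5.18, 4.02, 3.69, 3.13, 2.35, 2.03, 2.74, 2.22 and 1.76. Of the cycle genes Rrm2 was then -2.35 and not called, and 2810417H13Rik was -2.82 and called. With the skin embryos alone limma called 11 genes, among them Gjb2 (adjusted p = 0.0134), Krt15, Gjb6, Coch, Krt14 and Wnt7a. EdgeR on summed UMIs called 16 genes (3 higher, 13 lower), among them Gjb2, Krt15, 2810417H13Rik and Rrm2. Cxcl14, Gjb6, Krt14, Krt5 and all 5 Wnt genes were not called by edgeR.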

How the data were processed

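Single cells of mouse embryos had been profiled by a modified STRT protocol with UMIs and 3′ fragment sequencing. Per the study's methods, the authors aligned reads to mm10, counted uniquely mapped reads per gene, collapsed UMIs and kept cells with at least 2000 genes. The extraction text of the labels instead describes a Smart-seq2 variant for germ cells and the gonad, which are not the tissues labelled here. The submitters' processing notes name CASAVA 1.8, TopHat2 2.0.12 and HTSeq. The strand setting is not given in the sources used here, and 43 of the 200 named genes with a position share exonic bases with a gene on the opposite strand (8 on the same strand). The deposited unit is CPM in kind, which the authors call TPM: UMIs per 1000000 UMIs of the cell, with no length term, for 23154 genes. Whole UMIs were recovered for 100% of values (tolerance 0.05), and totals equalled the deposited count of UMIs per cell in 641 of 641 cells. No value column was left unmapped.

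Cell labels and organs came from the authors' list. Of 14 pairs of identical cell columns in the series, 3 lay among the cells used, and each was counted once. Values were log2(TPM/10 + 1) with a pseudocount of 1, averaged over at least 3 cells per embryo, organ and cell type. Embryo means of genes expressed in 3 or more of the compared cells entered limma 3.58.1 (R 4.3.3, lmFit and eBayes with trend), for organs over 47 means of 8 Epi and Mes groups and for stage over 25 Epi means, without a block. The stage main test grouped E9.5 with E10.5. A gene was called at a Benjamini-Hochberg adjusted p under 0.05 and a log2 difference of at least 1. Organs of 1 embryo come from the same animal. Deviations from the group means correlated between organs of an embryo by -0.0755 to 0.335 over 17 pairs, and deviations from stage means by -0.107 to 0.211 over 16 pairs, so the block was run as an alternative.

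Alternatives included log2(TPM + 1), other filters, thinning, each embryo left out, and edgeR 4.0.16 on summed whole UMIs, with tables handled in Python 3.11.15, numpy 2.4.6 and pandas 2.3.3. Named genes were the 4 markers, the 12 largest called increases and 12 decreases whose embryos did not overlap in each of the 2 main comparisons, up to 6 called and the first 4 members of each list, and 5 and 5 of the interaction. Genes named outside this rule (such as Mki67, Top2a and Tbx3) were chosen after their values were seen, and some genes that the rule selects are not reported here. The members and lists were chosen with earlier results of these data known. Positions are those of GENCODE M21 on GRCm38, and promoters those of RefSeq on GRCm38.p6. Columns of the authors' own comparisons were not used. Intervals and limits from counts of 0 cover counting error only.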

Additional observations from a re-analysis of the deposited data

Results flagged for a closer look

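Among 127 groups of embryo levels examined, 11 had 1 embryo far from the others of the same group, and chance gives this in about 1 of 20 groups. E9.5 embryo 2, the female embryo sequenced on the HiSeq 2500, stood apart in 4 genes: it was highest in Ccnd1 (2.77), Ttr (0.248) and Shh (0.0206) and lowest in Tfap2a (2.44). E9.5 embryo 3 was highest in Foxa2 (0.0413) and Itih2 (0.0516), and among the 4 early embryos in Wnt7a (0.0838). E10.5 embryo 1 was highest in Foxa1 (0.0707) and Sp5 (0.350). E10.5 embryo 2 was highest of the 4 early embryos in Krt15 (1.48) and Krt5 (0.192), both basal keratins that rose at E11.5. The values of Foxa1, Foxa2, Itih2, Shh and Wnt7a are close to 0 on the log2(TPM/10 + 1) scale.

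The change at E11.5 differed between the skin and the other 3 epithelia, by the interaction test in limma, in 10 genes reported above. The skin change exceeded that of the others by 5.29 for Gjb2, 4.98 for Cxcl14, 4.26 for Krt15, 3.22 for Gjb6 and 3.15 for Skap2. It lay below that of the others by -3.08 for 2810417H13Rik, -2.59 for Spc24, -2.59 for Rrm2, -2.58 for Gmnn and -2.36 for Uhrf1. Without E11.5 embryo 1 none of these 5 falls was called, and their values then lay between -2.71 (Spc24) and -1.98 (Uhrf1). E11.5 embryo 1 had no cell with 3 or more of the 6 mesenchyme markers and 3 of 18 cells expressing Rrm2, whereas E11.5 embryo 2 had 16 of 21 and 14 of 21. After thinning to 100000 UMIs these were 4 of 16 and 5 of 16 against 13 of 15 and 11 of 15. The part of this difference in the falls was not tested.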

How the results depend on the processing

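The count of called genes moved by more than 1.5 times with the scale and the test. On log2(TPM + 1), a log2 difference of 1 admits lower genes, and 1790 genes were called against the other 3 epithelia, 1446 against intestine, 3097 against liver, 1334 against lung and 168 across stages, with a median stage difference over all genes of -0.156. With edgeR the counts were 2170 (1625 higher, 545 lower), 1475 (735 and 740), 2753 (1612 and 1141) and 1019 (630 and 389) for the organ comparisons, 16 (3 and 13) across stages and 7 (1 and 6) for the interaction, whose median difference was then 0.169. A slope on embryonic day gave 238 stage calls (85 and 153) and 136 for the interaction (73 and 63). Skin embryos alone gave 11 (9 and 2) and E10.5 alone as the earlier group 51 (32 and 19). Their causes were not tested.

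With each embryo left out in turn, the counts ranged from 631 to 751, 628 to 707, 1418 to 1698 and 577 to 713 in the organ comparisons, from 52 (without E11.5 embryo 1) to 125 across stages, with 67 without E11.5 embryo 2, and from 45 (without E9.5 embryo 3) to 78 for the interaction, with 49 without E9.5 embryo 2 or E11.5 embryo 1. The interaction could not be fitted without E11.5 embryo 2. Single values that turned sign were the uncalled stage differences of Sostdc1 (0.0064 without E11.5 embryo 2 and -1.35 without E11.5 embryo 1) and Wnt6 (-0.187 without E11.5 embryo 1, 0.728 without E11.5 embryo 2). The 41 named stage results include Sostdc1, Tfap2b and Wnt6, which were not called in the main test either. Of the others, 31 were no longer called with edgeR and 32 with skin embryos alone.

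With the embryo as a replicate block, 690, 682, 1544 and 696 genes were called in the organ comparisons and 67 in the interaction. Among named results the block ended the calls of Col1a2 (1.19) and Wnt7b against the other organs and of Cenph, Hspb1 and Prim1 in the interaction, and no other call. The stage comparison cannot be estimated with the block, since an embryo has 1 stage. The other filters and thinning kept each total count within 1.5 times, as did counting identical columns as separate cells and taking the median over cells, both chosen after seeing the data, but the 22 lower interaction calls were 41 without a gene filter and 47 with the median. Among named results against the other organs, thinning ended the calls of Bambi, Cdca7, Gli2 (0.944) and Junb, edgeR those of Cdca7, Cenpa, Cldn3, Id1, Id3, Jup and Pkp2, and the median those of Bambi, Cdca7, Cenpa, Coch, Col1a2, Gli2, Id1, Id3, Junb, Prrx1 and Sp5. Across stages, thinning ended those of Foxi2 and Hspb1, and the median those of Dusp1, Fosb, Gmnn, Hspb1, Ier2, Rrm2, Skap2 and Wnt2. Depth limits the shares of cells, since 14 of 78 skin cells had under 100000 UMIs, and 2 late embryos from a shared skin sample limit the stage comparison.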
